A study of Mus musculus with 14 samples.

Results

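The collagen genes are the genes that encode the α chains of the collagens, the fibrous and sheet-forming proteins of the extracellular matrix. They were chosen by name: every gene of the spleen or ovary table whose symbol is Col, a number, the letter a and a number. This gave 40 of the 20139 genes that are in the spleen or the ovary table. Of these 40 collagen genes, 38 are in the spleen table and 40 in the ovary table. By the build of the molecule they fall into 10 fibrillar, 6 basement membrane, 7 fibril-associated, 6 beaded filament, 2 short chain network, 2 multiplexin, 4 transmembrane and 1 anchoring fibril genes, with *Col26a1* and *Col28a1* left in no class.

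A collagen is a triple helix of α chains, and the genes of a type are often used together because their chains are built into the same molecule. Fibrillar collagens pack into the rope-like fibrils of connective tissue and make the reticular fibres of the spleen, whereas type IV collagen forms the meshwork of basement membranes under endothelium and epithelium, with α1 and α2 as its common pair of chains. Multiplexins and several smaller collagens sit at the border of basement membranes, fibril-associated collagens decorate the fibrils, type VI makes beaded filaments around cells, and transmembrane collagens span the cell surface.

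The libraries were made from polyadenylated RNA of single organs, namely 8 spleens (4 wild-type, 4 L2-fKO) and 6 ovaries (3 wild-type, 3 L2-fKO). L2-fKO mice (L2-cKO in the sample labels) carry 2 recombined alleles of *Zfp36l2*, which encodes a protein that binds AU-rich elements in 3′UTRs and promotes mRNA decay, and the loxP sites lie on either side of exon 2. The controls were littermates whose *Zfp36l2* was intact on both chromosomes. Both groups carried the CMV-Cre transgene, a Cre under a cytomegalovirus promoter that is not specific to a tissue and also deletes in the germ line. The question in each organ was which mRNAs differ when the gene is lost. The wild-type spleens were from 2 females and 2 males and the L2-fKO spleens from 1 female and 3 males. L2-fKO spleen 3 and L2-fKO ovary 1 came from the same animal. The deletion is not restricted to a cell type, and L2-fKO pups die in early postnatal life. The study describes the spleens as coming from 4 age-matched pairs of pups in the first days of life and the ovaries as age-matched. The age of each animal and which spleens form a pair are not given in the sources used here, so the tests are unpaired.

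Each spleen library held 39138010 to 45167464 counts on genes, and each ovary library 31052510 to 44270070 recovered reads. *Zfp36l2* itself had 4362 to 7394 normalized counts in wild-type and 278 to 405 in L2-fKO spleens, and 4745 to 4906 in wild-type and 758 to 1011 in L2-fKO ovaries. The labels call the spleen samples organoids, and the libraries held erythroid markers (summed normalized counts of 429194 to 867172 for 10 genes) and lymphoid markers (20029 to 79320 for 10 genes), as spleen tissue does. The 12 granulosa cell and oocyte markers summed to 132034 to 197777 in the ovaries. All 9 markers of megakaryocytes and platelets were lower in the L2-fKO spleens (summed 24056 to 49572 against 1184 to 1455), and pancreatic acinar markers summed to 7985 to 26245 in 3 of the 4 wild-type spleens and to 1265 to 2196 in the other 5 libraries. In the L2-fKO spleens nearly all of the acinar sum was 1 gene, *Cela1* (1227 to 2091).

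Because ZFP36L2 binds AU-rich elements, the 3′UTRs of the collagen genes were searched for the 7-mer UAUUUAU, with 10 bases on either side shown. The matches printed are from *Col8a1*, which was called higher in the L2-fKO spleen, from *Col5a2* and *Col12a1*, which were higher on adjusted p alone, and from *Col3a1*, the highest collagen per kb of mRNA in wild-type libraries, which did not pass. The 7-mer is in capitals, the sequence is that of the mRNA strand read from GENCODE M21 on GRCm38, and the 2 matches of 1 gene do not overlap. The search covered the longest annotated 3′UTR and the sense strand only. *Col5a2* also holds 2 matches, and its line gives the second.
*Col8a1* first match, chr16:57626480-57626506, minus strand: uuacauacugUAUUUAUuugcaugcuu
*Col8a1* second match, chr16:57624845-57624871, minus strand: ucuuccaacuUAUUUAUugguuguuac
*Col5a2*, chr1:45375743-45375769, minus strand: cguugcuuagUAUUUAUgagaaaauuc
*Col12a1* first match, chr9:79600106-79600132, minus strand: gcaaugcaucUAUUUAUgguugugaga
*Col12a1* second match, chr9:79599028-79599054, minus strand: ugccuuauauUAUUUAUuucugaaaca
*Col3a1*, chr1:45348837-45348863, plus strand: aaauuccaguUAUUUAUuuccaaacuu

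The 7-mer was present in 7 of the 38 collagen genes tested in the spleen (18.4%), beside 29.5% of the 14227 genes with a 3′UTR tested there. It was present in 9 of the 40 tested in the ovary (22.5%), beside 29.2% of 15453 genes. Its core AUUUA was in 26 of the 38 (68.4%) and 28 of the 40 (70.0%), beside 69.9% and 69.4% of those genes. Of the 7 collagen genes called higher in the L2-fKO spleen, *Col8a1* alone held the 7-mer, at 2 places in a 3′UTR of 2653 bases. A match describes the sequence and is not evidence of binding, and genes without this 7-mer may hold other elements.

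The basement membrane genes *Col4a1* and *Col4a2* are neighbours on chromosome 8 that are transcribed on opposite strands from overlapping starts, so the sequence around their starts is shown too. In RefSeq windows of 250 bases before to 50 bases after each start (GRCm38.p6), the windows of both genes share 78 bases. The lines give the centre of that stretch with the GC box GGGCGG in capitals and a CCAAT box from the window of each gene in capitals, all on the plus strand.
Shared centre, chr8:11312801-11312830: cggcagtgcgcGGGCGGcgtctccaagggg
*Col4a2* CCAAT box, chr8:11312761-11312789: ccgaggagctccCCAATttgttggcgctg
*Col4a1* CCAAT box, chr8:11312955-11312983: ccccttggctcgCCAATcccgggcaagca

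On either strand, CCAAT was found for 12 of the 32 collagen genes with a window and for 41.1% of all 27025 genes with one. The GC box was found on either strand for 22 of the 32 collagen genes, beside 38.2% of all genes. A match is a description of the sequence and not of a factor's binding.

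Values are normalized counts. For the spleen these are the deposited counts scaled to a common library size with the TMM method, and for the ovary they are the authors' size-factor normalized values, so the numbers of the 2 organs are on separate scales and no test was made across them. Calls needed both a log2 fold change (L2-fKO over wild type) beyond 1 in either direction and a p below 0.05 after the Benjamini-Hochberg adjustment over all genes tested. The spleen was tested with edgeR's quasi-likelihood test and the ovary with limma on log2(normalized count + 1). The added 1 narrows the log2 differences between libraries at low values. An ovary fold change is a difference of mean logs, so for low genes it can depart from the ratio of the group means in either direction. Fold changes are given with their standard error (SE).

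In the L2-fKO spleen, 7 of the 38 collagen genes tested were called higher (beside 2.90% of all 16911 genes tested) and 0 were called lower (3.11% of all genes). The genes called higher were *Col26a1*, *Col23a1*, *Col8a1*, *Col28a1*, *Col4a1*, *Col18a1* and *Col4a2*, and none of them is a fibrillar collagen. On adjusted p alone 13 were higher (6.89% of all genes) and 0 lower (6.51%), and at an unadjusted p below 0.05 the numbers were 17 higher (14.4%) and 2 lower (14.6%). DESeq2 called 7 higher and 1 lower, the fibril-associated *Col9a2*, beside 548 higher and 596 lower among all 16911 genes. Every L2-fKO spleen was above every wild-type spleen for 12 collagen genes (9.61% of all genes) and below for 2 (10.8%). The median log2 fold change of the collagen genes was 0.29, beside -0.02 for all genes. In RNA from whole organs, more cells of a type and more RNA per cell cannot be told apart.

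In the L2-fKO ovary, 0 of the 40 were called higher (0.730% of all 18504 genes tested) and 1, the fibril-associated *Col22a1*, was called lower (0.227%). On adjusted p alone 1 was higher (1.23%) and 1 lower (0.351%), and at an unadjusted p below 0.05 the numbers were 7 higher (9.88%) and 3 lower (6.95%). Both edgeR and DESeq2 on the recovered reads called 0 higher and *Col22a1* lower. Among all 18504 genes DESeq2 called 286 higher and 121 lower. Every L2-fKO ovary was above every wild-type ovary for 8 collagen genes (13.2% of all genes) and below for 3 (12.0%). The median log2 fold change was 0.08, beside -0.0042 for all genes.

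**Figure D1:**
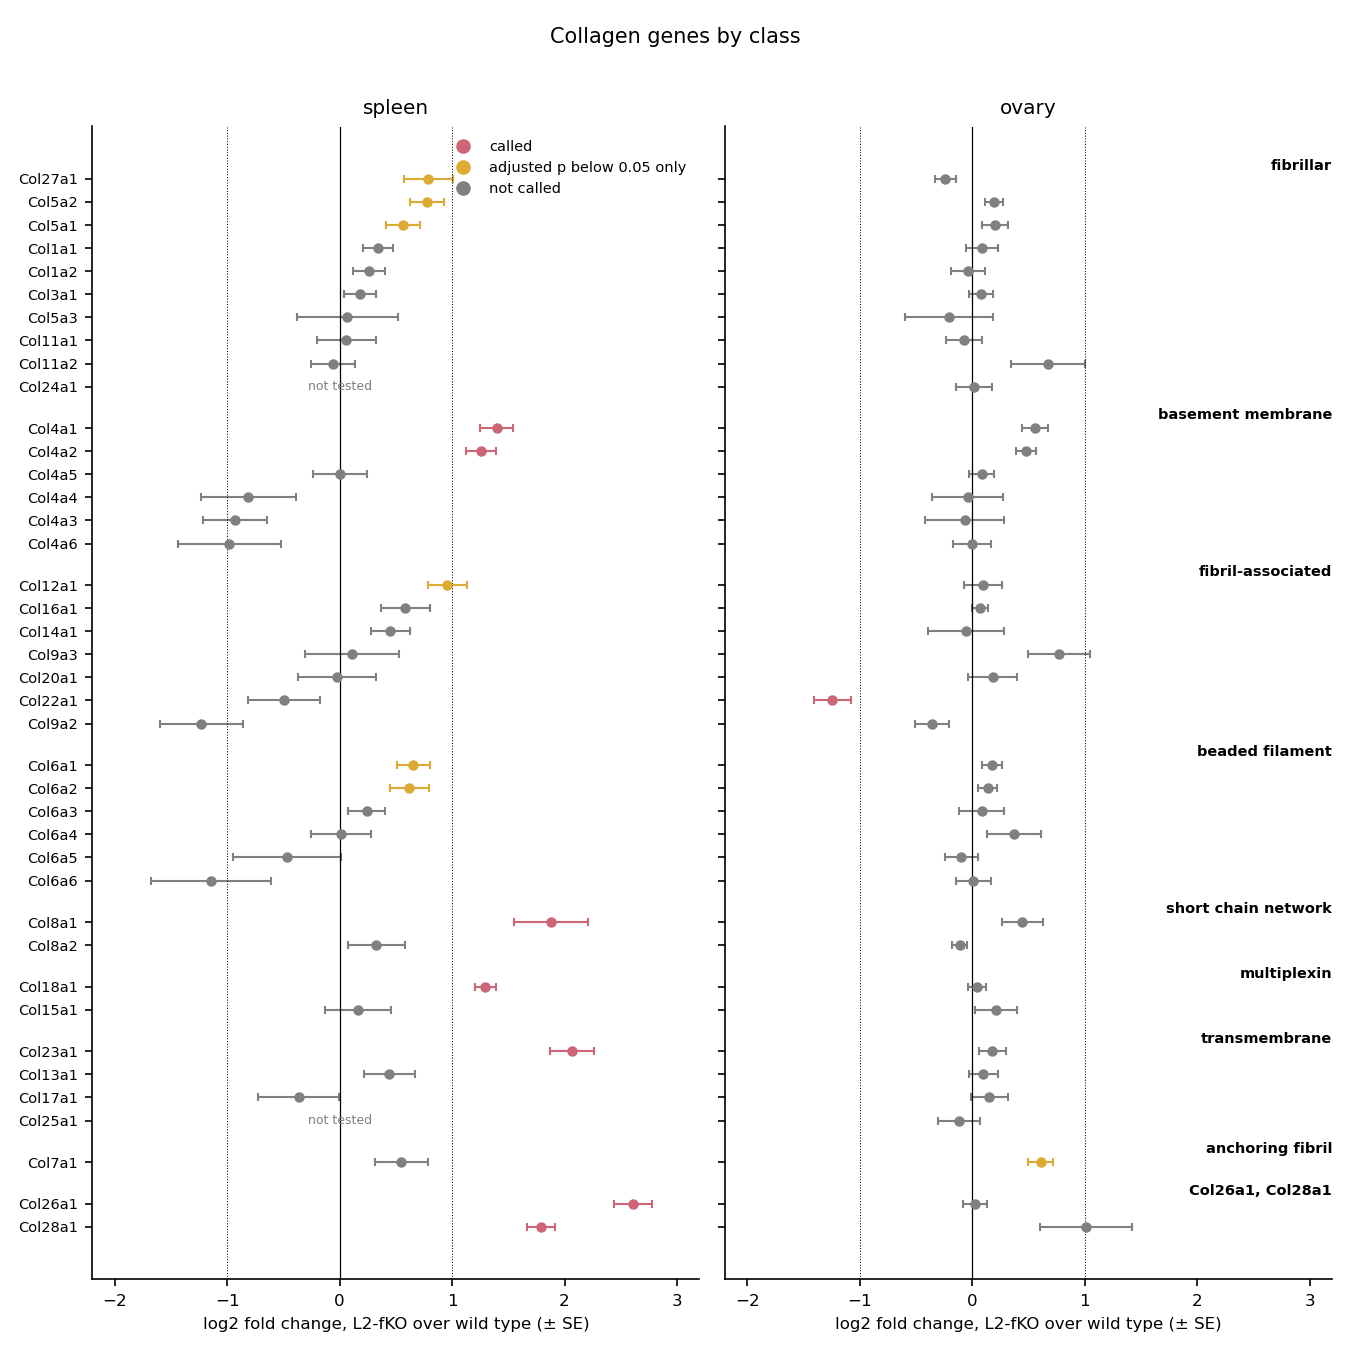
Log2 fold change of L2-fKO over wild type (x axis, bars ± SE) for each collagen gene (y axis, grouped by class) in the spleen, 4 against 4 libraries, and the ovary, 3 against 3, with dotted lines at 1 and -1. In the spleen the 7 called genes lie outside the fibrillar class and between 1.26 and 2.61, while in the ovary *Col22a1* at -1.24 is the called gene.

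The basement membrane class held the most abundant of the genes that rose, *Col4a1* and *Col4a2*, but the median log2 fold change of its 6 genes was -0.40. *Col4a1* (ENSMUSG00000031502, chr8:11198423-11312826, minus strand, GRCm38) encodes the α1 chain of type IV collagen. It had 12782, 12218, 13227 and 11639 normalized counts in the wild-type spleens and 28265, 29982, 31159 and 42091 in the L2-fKO spleens. The groups did not overlap, L2-fKO spleen 4 was the highest library, and the log2 fold change was 1.40 ± 0.15 (adjusted p = 0.000401, edgeR, Benjamini-Hochberg), a fold of 2.64. *Col4a2* (ENSMUSG00000031503, chr8:11312805-11449287, plus strand) encodes the α2 chain, which joins α1 in the most widespread type IV molecule. Its normalized counts were 9099.6, 8473, 8284 and 8191 in wild-type and 17838, 18260.0, 20223 and 25119 in L2-fKO spleens. Again no L2-fKO library was within the wild-type range, with a log2 fold change of 1.26 ± 0.13 (adjusted p = 0.000411, edgeR, Benjamini-Hochberg). The annotated genes overlap by 22 bases at their starts on opposite strands, and the reads were counted by strand.

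Per kb of mRNA, the ratio of *Col4a1* to *Col4a2* was 1.43 ± 0.0862 in wild-type (SD, n = 4) and 1.57 ± 0.0584 in L2-fKO spleens (SD, n = 4). The ratio of *Col4a1* to the fibrillar *Col1a1*, in contrast, was 1.22, 1.01, 1.03 and 0.787 in the wild-type and 1.80, 2.14, 1.99 and 2.33 in the L2-fKO spleens. All L2-fKO values of this second ratio were above all wild-type values.

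The other type IV chains did not move with α1 and α2, and they were scarce in the spleen. *Col4a3* and *Col4a4* encode chains of the specialised network of the glomerulus and other epithelia. *Col4a3* had 49.0, 34.3, 59.6 and 29.3 normalized counts in wild-type and 19.8, 27.7, 20.6 and 22.2 in L2-fKO spleens, so that all L2-fKO values were lower, and its log2 fold change of -0.93 ± 0.28 did not pass (adjusted p = 0.0572, edgeR, Benjamini-Hochberg). For its head-to-head neighbour *Col4a4* the groups overlapped, and the log2 fold change was -0.81 ± 0.42. The X-linked pair gave log2 fold changes of -0.98 ± 0.46 for *Col4a6* and 0.00 ± 0.24 for *Col4a5*. These 4 genes had a mean of 5.04 to 36.7 normalized counts per kb in wild-type spleens, beside 1885 for *Col4a1*, and they are named here because they complete the class, after their values were seen.

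In the ovary, *Col4a1* and *Col4a2* were the 2 genes of the class whose groups did not overlap, both with L2-fKO above. Among all genes tested in the ovary, 13.2% were likewise above and 12.0% below. *Col4a1* had 42735, 42971 and 37414 normalized counts in wild-type and 67826, 61206 and 53229 in L2-fKO ovaries, with a log2 fold change of 0.56 ± 0.11 (adjusted p = 0.0670, limma, Benjamini-Hochberg). *Col4a2* had 24654, 25334 and 23957 in wild-type and 38316, 33045 and 32043 in L2-fKO ovaries, with a log2 fold change of 0.48 ± 0.09 (adjusted p = 0.0509, limma, Benjamini-Hochberg). Neither passed the limits, and whether the size of the difference departs from that in the spleen was not tested. The other 4 chains were well represented in the ovary, at a wild-type mean of 134 to 778 normalized counts per kb, and their log2 fold changes lay between -0.07 and 0.08.

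**Figure D2:**
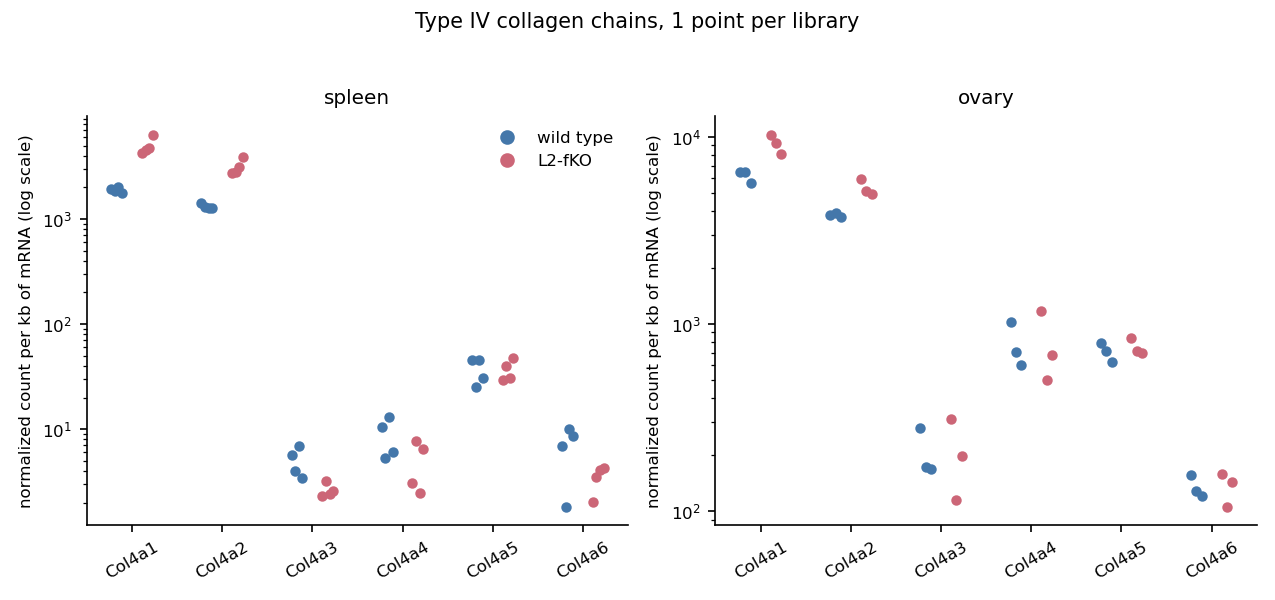
Normalized counts per kb of mRNA (y axis, log scale) of the 6 type IV collagen genes (x axis) in each spleen library (left) and each ovary library (right), 1 point per library. In the spleen the *Col4a1* and *Col4a2* points of L2-fKO animals lie above all wild-type points, whereas those of *Col4a3* lie below them.

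The multiplexin *Col18a1* (ENSMUSG00000001435, chr10:77052178-77166548, minus strand) encodes a basement membrane proteoglycan whose C-terminal fragment is endostatin. It had 2607, 2351, 2508 and 2368 normalized counts in wild-type spleens and 5817, 5701, 6261 and 6375 in L2-fKO spleens. The libraries of each group lay close together and the groups were far apart, with a log2 fold change of 1.30 ± 0.09 (adjusted p = 3.87e-05, edgeR, Benjamini-Hochberg). In the ovary *Col18a1* had 22258, 20696 and 19012 in wild-type and 21608, 21352 and 20748 in L2-fKO libraries, which overlapped (log2 fold change 0.04 ± 0.08). The other multiplexin, *Col15a1*, a collagen of the zone beneath basement membranes, overlapped in both organs, with log2 fold changes of 0.16 ± 0.29 in the spleen and 0.21 ± 0.19 in the ovary.

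Of the short chain network genes, *Col8a1* (ENSMUSG00000068196, chr16:57624258-57754737, minus strand) rose. It encodes a chain of type VIII collagen, which is made by vascular and corneal endothelium and smooth muscle. It had 61.3, 85.9, 182 and 87.9 normalized counts in wild-type spleens and 363, 522, 354 and 298 in L2-fKO spleens. The groups did not overlap, and the log2 fold change was 1.88 ± 0.33 (adjusted p = 0.00602, edgeR, Benjamini-Hochberg). Its partner *Col8a2* was the more abundant of the pair per kb in the wild-type spleens (a mean of 170.4 against 20.4) and did not pass there. The *Col8a2* values of 494, 749.5, 976 and 733 in wild-type and 1000.0, 877, 574 and 1242 in L2-fKO spleens overlapped (log2 fold change 0.32 ± 0.25). In the ovary neither gene passed, although the L2-fKO libraries were all above wild type for *Col8a1* (1096, 1340.3 and 1169 against 1399.5, 2214 and 1403, log2 fold change 0.45 ± 0.18). For *Col8a2* they were all below (2825, 2744 and 2808 against 2610.4, 2698 and 2459, log2 fold change -0.11 ± 0.07).

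*Col23a1* (ENSMUSG00000063564, chr11:51289920-51583918, plus strand) encodes a transmembrane collagen that can be shed from the cell surface. Wild-type spleens had 226, 129, 193 and 169.8 normalized counts and L2-fKO spleens 745, 605, 760.4 and 895. All L2-fKO libraries were well above the highest wild-type library, and the log2 fold change was 2.06 ± 0.20 (adjusted p = 0.000244, edgeR, Benjamini-Hochberg). In the ovary, with 677, 717 and 782 in wild-type and 724, 933 and 816 in L2-fKO libraries, the groups overlapped (log2 fold change 0.18 ± 0.12). *Col25a1*, the transmembrane collagen first found in amyloid plaques, was the highest of its class per kb of mRNA in the ovary. Per kb of all annotated exons its wild-type mean was 45.9, below the 126 of *Col23a1*. It had 635, 602 and 545 normalized counts in wild-type and 487, 736 and 453 in L2-fKO ovaries, which overlapped (log2 fold change -0.12 ± 0.19). In the spleen *Col25a1* and the fibrillar *Col24a1* had 0 to 14 and 0 to 9 counts per library, were below the filter and were not tested.

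The largest fold change among the collagens was that of *Col26a1* (ENSMUSG00000004415, chr5:136741759-136883209, minus strand), a short secreted collagen with an EMI domain that was first described in testis and ovary. It had 318, 253, 391 and 272 normalized counts in wild-type and 1919.7, 1579.5, 2215 and 1831 in L2-fKO spleens. The log2 fold change was 2.61 ± 0.17, a fold of 6.12 (adjusted p = 2.01e-05, edgeR, Benjamini-Hochberg). In the ovary its 3479, 3363 and 3568 normalized counts in wild-type and 2969, 3887 and 3817 in L2-fKO libraries overlapped, with a log2 fold change of 0.03 ± 0.11. *Col28a1* (ENSMUSG00000068794, chr6:7997808-8192617, minus strand), a collagen with von Willebrand factor A domains found at the basement membranes of Schwann cells, had 245, 233, 219.7 and 211 in wild-type and 759.9, 782, 883 and 719 in L2-fKO spleens. Again the groups were well apart, with a log2 fold change of 1.79 ± 0.12 (adjusted p = 3.42e-05, edgeR, Benjamini-Hochberg). In the ovary *Col28a1* was low, with 36.5, 47.6 and 15.6 in wild-type and 59.9, 70.9 and 55.8 in L2-fKO libraries. The ovary groups did not overlap, and the log2 fold change of 1.01 ± 0.41 did not pass (adjusted p = 0.270, limma, Benjamini-Hochberg).

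**Figure D3:**
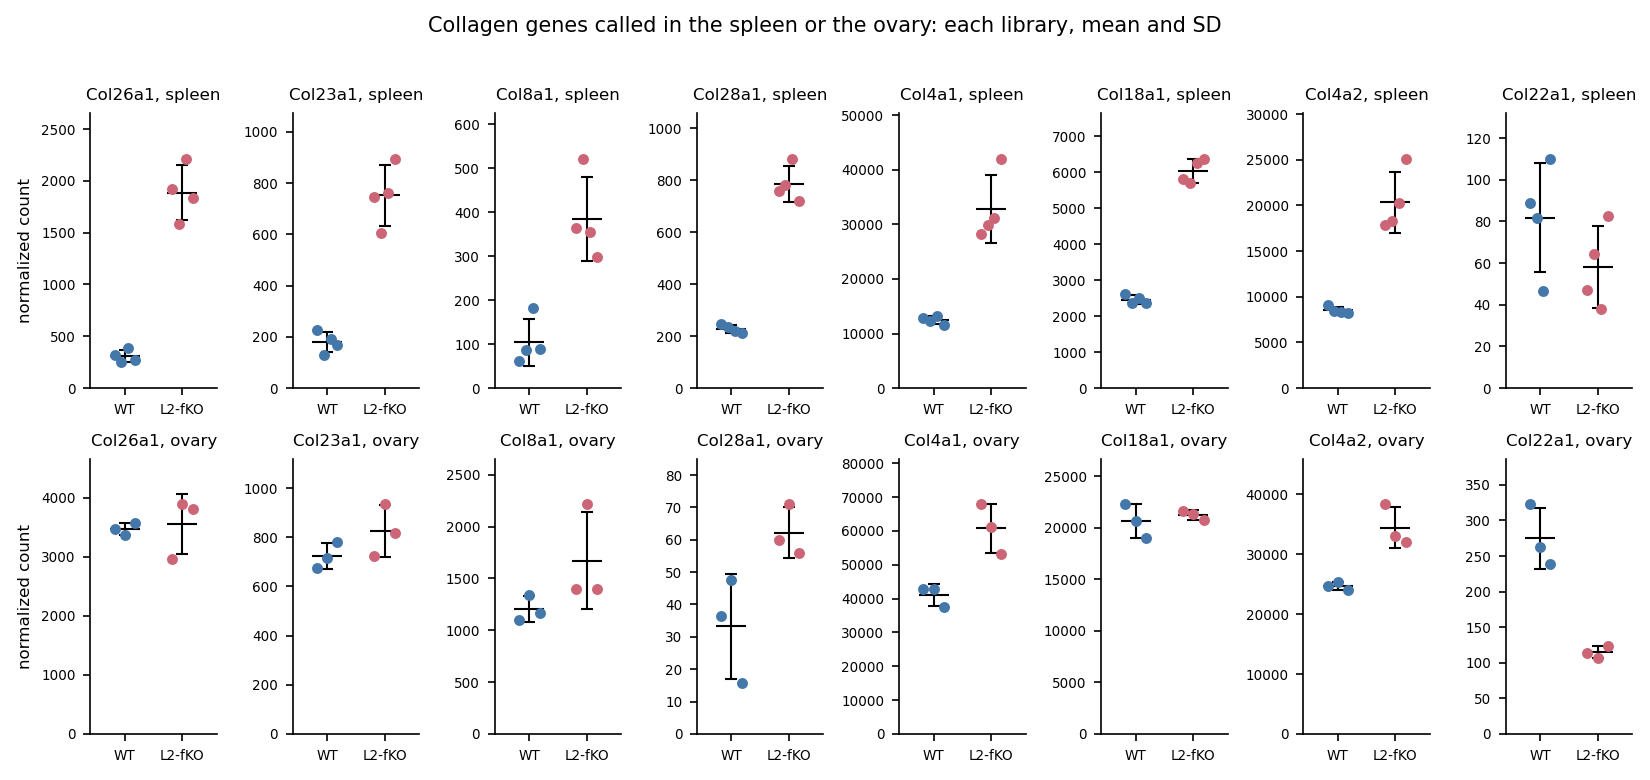
Normalized counts (y axis, from 0) of the 7 collagen genes called higher in the L2-fKO spleen and of *Col22a1*, called lower in the L2-fKO ovary, in wild-type (WT) and L2-fKO libraries of the spleen (top) and ovary (bottom), 1 point per library with the mean and SD. In the spleen the 2 groups are apart for the 7 genes, and in the ovary they are apart for *Col8a1*, *Col28a1*, *Col4a1*, *Col4a2* and *Col22a1*. Over all genes, every L2-fKO library was above wild type for 9.61% in the spleen and 13.2% in the ovary. It was below for 10.8% and 12.0%.

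The fibrillar collagens form the bulk of connective tissue. In the spleen 0 of the 9 tested were called by edgeR and 0 by DESeq2, with a median log2 fold change of 0.26. On adjusted p alone 3 were higher (6.89% of all genes), and 4 were higher at an unadjusted p below 0.05 (14.4%). *Col3a1*, the main collagen of reticular fibres, was the most abundant collagen per kb in both organs' wild-type libraries. Its spleen values of 17846, 16818, 23314 and 20684 in wild-type and 20800.4, 20716, 21388 and 26482 in L2-fKO libraries overlapped (log2 fold change 0.18 ± 0.14). Type I collagen, the heterotrimer that strengthens most connective tissue, gave log2 fold changes of 0.34 ± 0.14 for *Col1a1* and 0.26 ± 0.14 for *Col1a2*, with overlapping groups.

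The 3 fibrillar genes that passed on adjusted p alone encode minor chains. *Col5a1* and *Col5a2* make type V collagen, which lies inside type I fibrils and limits their width. *Col5a2* had 2122, 2278, 3008 and 2354 normalized counts in wild-type and 3766, 4016, 3625 and 5318 in L2-fKO spleens (log2 fold change 0.78 ± 0.15, adjusted p = 0.0109, edgeR, Benjamini-Hochberg). *Col5a1* had 4147, 5639.7, 6774 and 6061 in wild-type and 7955, 7563, 9074 and 8745 in L2-fKO spleens (log2 fold change 0.56 ± 0.15, adjusted p = 0.0372, edgeR, Benjamini-Hochberg). Neither gene's groups overlapped. The adjusted p of *Col5a1* was 0.0535 to 0.0943 (edgeR, Benjamini-Hochberg) without any 1 of wild-type spleens 1, 2 and 4 or L2-fKO spleens 1, 2 and 3, whereas *Col5a2* passed with each library left out. The ratio of *Col5a2* to its chromosomal neighbour *Col3a1*, per kb of mRNA, was 0.104 ± 0.00820 in wild-type and 0.156 ± 0.0117 in L2-fKO spleens (SD, n = 4 each), and 0.0743 ± 0.00475 and 0.0805 ± 0.00460 in the ovaries (SD, n = 3 each).

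*Col27a1*, a fibrillar collagen of developing cartilage, had fold changes of opposite sign in the 2 organs. It had 447, 404, 592 and 348 normalized counts in wild-type and 657, 695, 649.6 and 1093 in L2-fKO spleens, with every L2-fKO library higher (log2 fold change 0.79 ± 0.22, adjusted p = 0.0410, edgeR, Benjamini-Hochberg). In the ovary the values were 2886, 3322 and 3396 in wild-type and 2465, 2873 and 2801 in L2-fKO libraries, with every L2-fKO library lower (log2 fold change -0.24 ± 0.09, adjusted p = 0.260, limma, Benjamini-Hochberg). In the spleen the adjusted p was 0.0506 to 0.119 (edgeR, Benjamini-Hochberg) without any 1 of wild-type spleens 1, 2 and 4 or L2-fKO spleens 1, 2 and 4, 0.0589 with sex as a covariate, and 0.0747 and 0.104 with a replicate block. The difference between the organs was not tested.

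In the ovary no fibrillar gene passed. limma, like edgeR and DESeq2 on the recovered reads, called 0 of the 10 fibrillar genes. At an unadjusted p below 0.05, 1 was higher (9.88% of all genes) and 1 lower (6.95%). *Col3a1* had 127924, 108413 and 119591 normalized counts in wild-type and 129528, 125352 and 120089 in L2-fKO ovaries (log2 fold change 0.08 ± 0.11). *Col5a1* had 21269, 20172 and 18469.5 in wild-type and 26002, 19572 and 23802 in L2-fKO ovaries, which overlapped (log2 fold change 0.20 ± 0.12). For *Col5a2*, with 10485, 9908 and 11012 in wild-type and 12098, 12802 and 11054 in L2-fKO ovaries, each L2-fKO library was above wild type, L2-fKO ovary 3 by a small margin (log2 fold change 0.19 ± 0.08).

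Among the fibril-associated collagens, which coat fibrils and link them to other matrix, 0 of 7 were called in the spleen by edgeR. *Col12a1*, a large collagen of dense connective tissue, was the nearest to the limit of the higher genes. Its spleen values of 759, 1066, 1440.2 and 1004 in wild-type and 2092, 2065, 2041 and 2102 in L2-fKO libraries did not overlap, and the L2-fKO values lay close together. The log2 fold change was 0.96 ± 0.17 (adjusted p = 0.00656, edgeR, Benjamini-Hochberg), and without wild-type spleen 3 it was 1.13, past the limit. In the ovary *Col12a1* had 8446, 8501 and 6111 in wild-type and 8868, 9147 and 6571 in L2-fKO libraries, which overlapped (log2 fold change 0.09 ± 0.17). *Col14a1*, which binds type I fibrils, was the most abundant of the class in the spleen, with 7136, 7146, 8244 and 6806 in wild-type and 8799.9, 9701, 7710.5 and 13897 in L2-fKO libraries. These groups overlapped (log2 fold change 0.45 ± 0.18). In the ovary *Col14a1* varied within the groups (1783, 739 and 1726 in wild-type and 1631, 1126 and 1098 in L2-fKO libraries, log2 fold change -0.06 ± 0.34).

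*Col9a2*, a chain of cartilage type IX collagen, had the lowest fold change of the collagens in the spleen and was the highest of its class per kb of mRNA in the wild-type ovary, though not in normalized counts. The spleen values were 89.6, 129, 59.6 and 69.7 in wild-type and 34.4, 51.0, 16.3 and 46.0 in L2-fKO libraries, with no overlap. The log2 fold change of -1.23 ± 0.37 missed the limit (adjusted p = 0.0537, edgeR, Benjamini-Hochberg), and DESeq2 called it (adjusted p = 0.00918, Benjamini-Hochberg). In the ovary *Col9a2* had 3685, 4165 and 4981 in wild-type and 2991, 4028 and 3013 in L2-fKO libraries, which overlapped (log2 fold change -0.36 ± 0.15).

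*Col22a1* (ENSMUSG00000079022, chr15:71795795-72034227, minus strand), a collagen of tissue junctions such as that between muscle and tendon, was the collagen called in the ovary. It had 322, 263 and 239 normalized counts in wild-type and 114, 107 and 124 in L2-fKO ovaries. The groups did not overlap, and the log2 fold change was -1.24 ± 0.17, a fold of 0.422 (adjusted p = 0.0184, limma, Benjamini-Hochberg). Without wild-type ovary 1, 2 or 3 or without L2-fKO ovary 1 the log2 fold change was -1.12 to -1.34 and the adjusted p 0.05002 to 0.106 (limma, Benjamini-Hochberg), so the call rests on all of these libraries. In the spleen *Col22a1* had 88.6, 81.8, 46.7 and 110.2 in wild-type and 47.0, 64.2, 38.0 and 82.7 in L2-fKO libraries, which overlapped (log2 fold change -0.49 ± 0.32).

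The beaded filament genes encode type VI collagen, whose common form joins the α1, α2 and α3 chains. In the spleen 0 of 6 were called by edgeR or DESeq2. *Col6a1* and *Col6a2*, neighbours on chromosome 10, were higher on adjusted p alone, as were 6.89% of all genes. *Col6a1* had 1825, 1651, 2183 and 1661 normalized counts in wild-type and 2556, 2381, 3151 and 3420.1 in L2-fKO spleens (log2 fold change 0.65 ± 0.15, adjusted p = 0.0179, edgeR, Benjamini-Hochberg). *Col6a2* had 1385, 1197, 1992 and 1499 in wild-type and 2124, 1951, 2412 and 2855 in L2-fKO spleens (log2 fold change 0.62 ± 0.18, adjusted p = 0.0443, edgeR, Benjamini-Hochberg). The groups of *Col6a1* did not overlap and those of *Col6a2* did, because L2-fKO spleen 2 lay below wild-type spleen 3. Leaving out any library but wild-type spleen 3 put the adjusted p of *Col6a2* at 0.0549 to 0.115, and leaving out wild-type spleen 2 or 4 put that of *Col6a1* at 0.0592 and 0.0633 (edgeR, Benjamini-Hochberg). *Col6a3* gave 0.24 ± 0.17, and the chromosome 9 cluster of *Col6a4*, *Col6a5* and *Col6a6* gave 0.01 ± 0.27, -0.47 ± 0.48 and -1.14 ± 0.53.

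Type VI collagen was a major collagen of the ovary, where 0 of the 6 genes were called by limma, edgeR or DESeq2 and 0 had an unadjusted p below 0.05. *Col6a2* was the highest of them, with 36963, 41979.6 and 40089.8 normalized counts in wild-type and 42067, 43163 and 45838 in L2-fKO ovaries. Its lowest L2-fKO ovary was just above its highest wild-type ovary (log2 fold change 0.14 ± 0.09), and for *Col6a1* the groups overlapped (37637, 39929 and 36607 against 44086, 39761 and 45418, log2 fold change 0.18 ± 0.09). The log2 fold changes of the class lay between -0.10 and 0.37.

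*Col7a1* encodes the chain of the anchoring fibrils that fasten epithelial basement membranes to the stroma. In the ovary it had 483, 506 and 446 normalized counts in wild-type and 749, 783 and 659 in L2-fKO libraries, without overlap. It was the collagen gene that was higher in the ovary on adjusted p alone (log2 fold change 0.61 ± 0.11, adjusted p = 0.0408, limma, Benjamini-Hochberg), and with any 1 of the 6 ovaries left out the adjusted p was 0.0509 to 0.200. In the spleen, with 1085, 640.4, 839 and 532 in wild-type and 968, 871, 1235 and 1452 in L2-fKO libraries, the groups overlapped (log2 fold change 0.55 ± 0.24, adjusted p = 0.159, edgeR, Benjamini-Hochberg).

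The order of the collagens by level was then compared per kb of mRNA, with means ± SD over the libraries of a group. In wild-type spleens (n = 4) it was led by *Col3a1* (3534 ± 527) and *Col1a2* (3200.5 ± 231), which did not differ beyond their SDs, followed by *Col1a1* (1897 ± 273) and *Col4a1* (1885 ± 104), which were level, *Col4a2* (1319.7 ± 63.4) and *Col14a1* (1136 ± 97.2). In L2-fKO spleens (n = 4) the highest was *Col4a1* (4969.7 ± 946), which overlapped by its SD with *Col3a1* (4016 ± 498), and then came *Col1a2* (3835 ± 728), *Col4a2* (3157 ± 518), *Col1a1* (2399.7 ± 255) and *Col14a1* (1553 ± 419). These SDs measure the spread between libraries, and within each L2-fKO spleen *Col4a1* was above *Col3a1* per kb. So the rank of *Col4a1* among the 40 genes was 4 in wild-type and 1 in L2-fKO spleens, and that of *Col26a1* was 15 and 10. With the length of all annotated exons in place of the mRNA, these ranks were 3 and 1 for *Col4a1* and 20 and 13 for *Col26a1*. In the ovaries the first 7 genes stood in the same order in both groups, namely *Col3a1*, *Col1a2*, *Col1a1*, *Col6a2*, *Col6a1*, *Col4a1* and *Col4a2*, and the order among them changed with the length used.

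Summed by class, the collagen mRNA of the spleen differed in make-up between the groups. The fibrillar class took 55.7%, 58.5%, 58.7% and 61.9% of the collagen counts per kb in wild-type spleens and 46.7%, 45.7%, 44.8% and 44.7% in L2-fKO spleens. The basement membrane class took 18.1% to 21.9% in wild-type and 29.1%, 30.5%, 31.3% and 31.8% in L2-fKO spleens. The groups of both classes were apart, with a mean difference of -13.2 percentage points for the fibrillar and 11.1 for the basement membrane class. No test was made of these sums, since the genes were chosen with results known.

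The lower fibrillar share did not come with a lower fibrillar level. The summed level of all collagens per kb was 15566 to 18222 in wild-type and 24304 to 32445 in L2-fKO spleens. Within it the fibrillar sum was 8665 to 10690.4 in wild-type and 11114 to 14493 in L2-fKO spleens (1.23 times by the means), and the basement membrane sum was 3078 to 3412 and 7075 to 10318 (2.51 times). The smaller multiplexin and transmembrane classes were 2.28 and 2.30 times higher by their means, the unclassed pair 5.26 times, and the fibril-associated, beaded filament, short chain and anchoring fibril classes 1.40 to 1.51 times.

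The make-up of the ovary was closer between the groups. The fibrillar share was 57.2%, 53.9% and 56.6% in wild-type and 53.1%, 51.0% and 55.0% in L2-fKO ovaries, which overlapped. The basement membrane share was 11.7%, 12.1% and 10.8% in wild-type and 15.9%, 15.2% and 12.9% in L2-fKO ovaries, with all L2-fKO values higher. Beaded filament collagens took 20.3% to 23.4% of the ovary total and 5.40% to 7.18% of the spleen total.

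**Figure D4:**
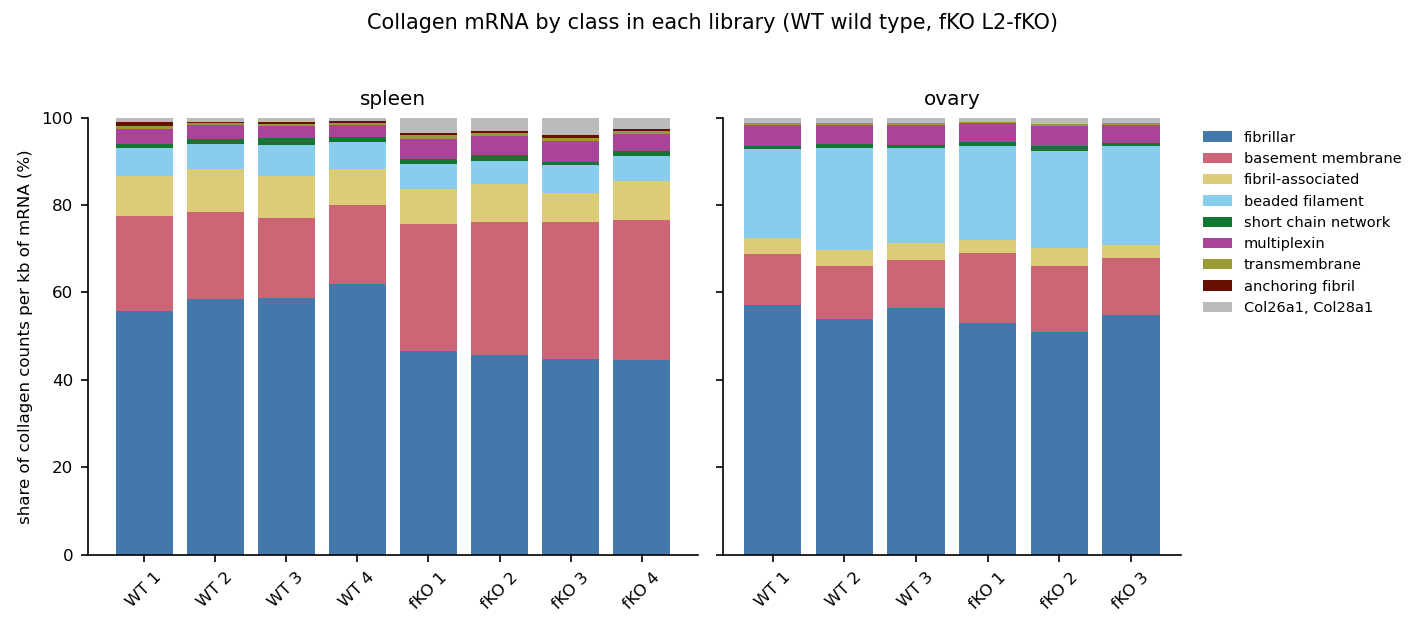
Share of the collagen counts per kb of mRNA (y axis, %) held by each class in each library (x axis, WT wild type and fKO L2-fKO), spleen on the left and ovary on the right. Fibrillar genes hold 55.7% to 61.9% in wild-type and 44.7% to 46.7% in L2-fKO spleens, and basement membrane genes 18.1% to 21.9% and 29.1% to 31.8%.

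The libraries of a group were not alike. L2-fKO spleen 4 was the highest L2-fKO library for 30 of the 38 collagen genes tested, and wild-type spleen 3 the highest wild-type library for 20. Without L2-fKO spleen 4 the same 7 genes were called higher, and *Col9a2* was then called lower (log2 fold change -1.36, adjusted p = 0.0498, edgeR, Benjamini-Hochberg). In the 5 male spleens alone, 9 genes were called higher, the 7 and *Col12a1* and *Col27a1*.

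The enzymes and partners of the collagens were read from 4 lists. Of all genes in the spleen, 2.90% were called higher and 3.11% lower. On adjusted p alone the shares were 6.89% and 6.51%, and at an unadjusted p below 0.05 they were 14.4% and 14.6%. In the ovary the shares higher and lower were 0.730% and 0.227% called, 1.23% and 0.351% on adjusted p alone, and 9.88% and 6.95% unadjusted. Of 19 genes of collagen synthesis tested in the spleen (prolyl and lysyl hydroxylases, chaperones and export factors), 2 were called higher and 0 lower by edgeR, likewise by DESeq2, with 13 higher and 0 lower at an unadjusted p below 0.05, and 6 were higher on adjusted p alone. The called ones were *Plod2*, a lysyl hydroxylase that acts on the telopeptides, at 1.13 ± 0.13 (adjusted p = 0.000606, edgeR, Benjamini-Hochberg), and *P3h2*, a prolyl 3-hydroxylase that prefers basement membrane collagen, at 1.08 ± 0.17 (adjusted p = 0.00329, edgeR, Benjamini-Hochberg). The list's median log2 fold change was 0.39.

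Of 11 genes of collagen processing and crosslinking tested in the spleen, 2 were called higher and 0 lower by edgeR and 3 and 0 by DESeq2, with 8 higher and 0 lower at an unadjusted p below 0.05, and 7 were higher on adjusted p alone. *Pcolce2*, an enhancer of C-propeptide removal, had a log2 fold change of 1.71 ± 0.38 and *Adamts2*, an N-propeptidase of fibrillar procollagens, 1.13 ± 0.15 (adjusted p = 0.0166 and 0.00136, edgeR, Benjamini-Hochberg). The list's median was 0.66.

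Of 16 basement membrane partners (laminins, nidogens, perlecan, agrin and *Sparc*), *Nid2*, which bridges laminin and type IV collagen, was called higher in the spleen at 1.29 ± 0.15 (adjusted p = 0.000695, edgeR, Benjamini-Hochberg). DESeq2 also called 1 higher, 0 were called lower by either tool, 7 were higher and 0 lower at an unadjusted p below 0.05, 6 were higher on adjusted p alone, and the median was 0.37. *Nid2* was also the partner that passed on adjusted p alone in the ovary, at 0.37 ± 0.06 (adjusted p = 0.0381, limma, Benjamini-Hochberg).

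Of 11 collagen receptors tested in the spleen, 1 was called higher and 1 lower. *Mrc2*, the endocytic receptor for collagen fragments, rose by 1.22 ± 0.14, and *Gp6*, the collagen receptor of platelets, fell by 6.41 on the log2 scale (adjusted p = 0.000522 and 8.84e-06, edgeR, Benjamini-Hochberg). *Gp6* is also 1 of the 9 megakaryocyte and platelet markers, all of which fell. On adjusted p alone 5 receptors were higher and 2 lower. In the ovary 0 genes of the 4 lists were called by limma or DESeq2, 1 synthesis gene was lower and 1 processing gene, 0 receptors and 5 basement membrane partners were higher at an unadjusted p below 0.05, and the list medians lay between -0.04 and 0.23. The log2 fold changes there ran from -0.20 for *Plod1* to 0.08 for *P4ha1* in synthesis, from 0.09 for *Loxl3* to 0.37 for *Lox* in processing and from -0.14 for *Adgrg1* to 0.66 for the scarce *Gp6* among receptors, and the highest among basement membrane partners was 0.44 for *Lama4*.

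Markers of the cells that make collagen were read beside these results, and the shares over all genes given with the lists apply to their counts too. Of 11 fibroblast and stromal markers tested in the spleen, *Lum*, *Pdgfra* and *Pdgfrb* were called higher (log2 fold changes 1.90, 1.59 and 1.15) and *Pi16* lower (-2.22), and *Ccl21a* was listed at 0. The fibroblast markers summed to 29962 to 35633 normalized counts in wild-type and 32304 to 53105 in L2-fKO spleens. Most of this sum was *Cxcl12* (means of 20925 and 25867, log2 fold change 0.31, not called). Of 9 smooth muscle and pericyte markers, the pericyte gene *Rgs5* was called higher (3.06) and *Mcam* and *Notch3* passed on adjusted p alone, with a summed level of 13380 to 20423 and 21637 to 24140. Of 10 endothelial markers, *Vwf* was called lower (-1.03) and *Cdh5* was higher on adjusted p alone, with a summed level of 23963 to 30602 and 29094 to 43484. Of 6 bone and cartilage markers tested, *Dmp1* was called higher (2.01). Among 6 mesothelial markers 0 were called by edgeR or DESeq2. At an unadjusted p below 0.05, 1 was higher, *Wt1* (0.55), and 0 were lower. The median log2 fold change of the mesothelial markers was nevertheless -0.56. Their summed level was 1451 to 3228 in wild-type and 1225 to 2978 in L2-fKO spleens. The part of these cell types in the collagen values was not tested.

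In the ovary 0 of 9 fibroblast, 0 of 9 smooth muscle and 0 of 10 endothelial markers were called by limma or DESeq2. On adjusted p alone *Pdgfrb* and *Cxcl12*, *Notch3*, and *Cdh5* were higher, and at an unadjusted p below 0.05 the numbers were 2, 3 and 8, all higher. The endothelial sum was 15687 to 16726 in wild-type and 19367 to 22843 in L2-fKO ovaries, and its part in the values of *Col4a1* and *Col4a2* was not tested.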

How the data were processed

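Per the labels and the authors' methods, reads were trimmed with Trimmomatic 0.36, mapped with STAR 2.5.2b to GRCm38 and assigned to exons with featureCounts (Subread 1.5.2), where strand was used and only uniquely mapped reads were kept. The authors deposited the spleen as whole-number counts for 49315 genes, without normalization, and the ovary as signal values (counts divided by 1 size factor per library) for 18603 genes. In the ovary 100.0% of values were whole multiples of the value of 1 read within 0.001 of a read, and these reads were used in alternatives. The deposited fold changes and p-values of the authors' DESeq2 comparisons were not used.

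Spleen counts were tested with edgeR 4.0.16 (quasi-likelihood, TMM; 10 or more counts in 4 or more libraries) and the ovary with limma 3.58.1 (trend, pseudocount 1; values of 10 or more in 3 or more libraries), in R 4.3.3, with the Benjamini-Hochberg adjustment over all genes tested. DESeq2 1.42.0, other normalizations, filters and pseudocounts, sex, a replicate block and each library left out were alternatives. Tables and figures were made with Python 3.11.15. The pipelines were tested on simulated data. Levels per kb used the mRNA with the longest coding sequence in GENCODE M21, and the length of all exons was an alternative chosen after seeing the data. Library depth limits low genes more than abundant ones, and a lower count is known less precisely.

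The genes, classes and lists were chosen with earlier results of these data known. Genes given with values in every library were those called or with an adjusted p below 0.05 in either organ and the most abundant of each class per organ, and others named were chosen after their values were seen. Libraries of a group differed by more than counting error (chi-square per degree of freedom 7.86 to 236 in the spleen and 11.9 to 57.5 in the ovary), so none was counted as a repeat. In the labels 2 wild-type spleens carry number 3, and the male one is called wild-type spleen 4.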

Additional observations from a re-analysis of the deposited data

Results flagged for a closer look

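In a group of 4 spleens a library was set apart where its gap to the next one, divided by the range of the group, was above Dixon's critical value for 4 values. This was met in 8 of the 80 groups checked, and chance alone marks about 1 in 20. L2-fKO spleen 4 was the high library for 5 genes, with normalized counts of 26482 for *Col3a1*, 2526 for *Col6a3*, 1093 for *Col27a1*, 679 for *Col15a1* and 42.6 for *Col9a3*. Wild-type spleen 1 was the high library for *Col5a3* (363) and *Col17a1* (99.97), and L2-fKO spleen 2 the low one for *Col6a6* (7.75). None of these genes was called, and *Col27a1* passed on adjusted p alone.

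*Col27a1* differed in direction between the organs, with every L2-fKO library above wild type in the spleen (log2 fold change 0.79) and below it in the ovary (-0.24). The difference itself was not tested, because the 2 organs were normalized separately.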

How the results depend on the processing

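The 7 collagen genes called higher in the L2-fKO spleen were called under every alternative run. DESeq2, RLE normalization, no filter, at least 10 counts in all libraries, and sex as a covariate gave 7 genes, the male spleens 9, and adjusted p with no limit on fold change 13. The count of lower genes in the spleen, 0, was 1 with DESeq2, with no filter, with sex as a covariate and with either replicate block (*Col9a2* in each, log2 fold change -1.22 to -1.56), and 0 to 1 with 1 library left out (*Col9a2* without wild-type spleen 3 or L2-fKO spleen 4, and *Col4a6* without wild-type spleen 2). With 1 library left out the higher genes numbered 7 to 8. In the ovary the count of lower genes was 0 to 1 with 1 library left out and 1 under the other alternatives, and the count of higher genes was 1 on adjusted p alone and 0 under the others.

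The labels do not say whether the replicate numbers pair the samples, and which spleens form the age-matched pairs is not given. Deviations from the group means correlated at -0.14 to 0.18 between spleens of the same titled number and at 0.07 to 0.38 between same-numbered ovaries. Between differently numbered libraries they ran from -0.29 to 0.44 in the spleen and from -0.33 to 0.18 in the ovary. Wild-type ovaries 1 and 2 correlated best with the L2-fKO ovary of their own number, and wild-type ovary 3 with L2-fKO ovary 2. Wild-type spleen 4 and L2-fKO spleen 4 correlated at -0.29. With the replicate block as titled the spleen gave 8 genes higher (*Col12a1* added) and 1 lower, with the second wild-type spleen numbered 3 taken as number 4 it gave 7 and 1, and the ovary block gave 0 and 1 as without it.

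The dependence of the sign was read for 39 fold changes. They are those of the genes called, with an adjusted p below 0.05, or the most abundant of a class. Other genes named in the text were not in this check. The sign turned at 9 values, all ovary fold changes with a library left out, and none of these genes was called in the ovary. Over the ovaries left out, *Col12a1* ran from -0.064 to 0.25, *Col14a1* from -0.47 to 0.16, *Col18a1* from -0.016 to 0.098, *Col25a1* from -0.33 to 0.014 and *Col26a1* from -0.043 to 0.15. The difference between the groups in the fibrillar share of the spleen, -13.2 points, was -12.7 with no division by length and -12.3 with the length of all exons. The shares themselves moved further, and by all exons the fibrillar share was 50.5% in wild-type and 38.2% in L2-fKO spleens and 49.7% and 46.9% in the ovaries. Genes under about 100 counts, such as *Col4a3*, *Col4a6* and *Col9a2*, are limited by depth. The causes of the changes given here were not tested.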
